A study of Mus musculus with 6 samples.

Results

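The vascular endothelial growth factor (VEGF) family was followed here as 10 genes, taken by symbol from the 47729 genes counted in lung endothelial cells (ECs) of WT and leene-KO mice. They comprise the 3 receptor tyrosine kinases Kdr (VEGFR2), Flt1 (VEGFR1) and Flt4 (VEGFR3), the co-receptors Nrp1 and Nrp2, and the 5 ligands Vegfa, Vegfb, Vegfc, Vegfd and Pgf. All 10 passed the filter on low counts that left 14625 genes for testing.

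VEGF ligands are secreted dimers that bind receptor kinases on the EC surface. VEGFR2 carries most of the signal for EC survival, growth, migration and permeability. VEGFR1 binds VEGF-A tightly but signals weakly and is also made as a soluble form that holds the ligand back, and VEGFR3 serves VEGF-C and VEGF-D, above all in lymphatic ECs. Neuropilins lack kinase activity and present VEGF, or semaphorins, to partner receptors. In the lung, ECs read VEGF-A made largely by alveolar epithelium, and some ECs make ligand of their own.

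The 6 libraries came from male mice of 14 weeks on normal chow. Both groups, WT and KO, had carried an osmotic pump that delivered AngII at 1000 ng/kg/min for 2 weeks, so no group without AngII enters any value below. The KO mice lack the mouse region homologous to the human long non-coding RNA gene LEENE, a germline deletion present in every cell type and not in ECs alone. There were 3 WT and 3 KO libraries. The labels describe CD31-enriched cells pooled from 3 mice per group, whereas the methods of the study describe magnetic sorting on CD144 and 3 mice per group, so whether a library is 1 animal or a share of a pool is not settled. The p-values below therefore measure only the spread between libraries, which may be technical. CD31 is the product of Pecam1 and CD144 that of Cdh5, so both reference genes used below are also possible sorting antigens.

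Total counts per library lay between 24464324 and 35184063, of which mitochondrial genes took 37.4 to 54.5%. None of the 15 endothelial markers was at 0 in any library, and their summed level spanned 2452 to 4515 CPM (counts scaled to a common library size) in WT and 2639 to 4282 CPM in KO. Other cell types were present too. The 7 alveolar type II markers summed to 5285, 49946 and 15401 CPM in WT replicates 1 to 3 and to 38812 to 47906 CPM in KO. The 5 club and ciliated airway cell markers summed to 15364, 40428 and 19931 CPM in WT replicates 1 to 3 and to 33579 to 56791 CPM in KO. Most of that sum was the club cell genes Scgb1a1 and Cyp2f2. Of the 5 markers, 3 had log2 fold changes above 0. The ciliated cell genes Foxj1 (-0.03) and Ccdc113 (-0.19) were the 2 below, so the sum does not describe ciliated cells. The 6 B cell markers summed to 7.81 to 18.8 CPM in WT and 67.6 to 68.9 CPM in KO. The 7 T cell markers summed to 3.13 to 5.23 CPM and 7.39 to 11.0 CPM, in the same order. Both sums were higher in every KO library, and their part in the members' differences was not tested. WT replicate 1 stood apart. It had the lowest alveolar type II sum, club and ciliated sum, and Nrp1, Pecam1 and Cdh5 levels of the 6 libraries. Library sizes behind CPM are scaled by TMM (edgeR's trimmed mean of M-values), and in such bulk libraries fewer cells of a type and less RNA per cell cannot be told apart.

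No member of the family passed an adjusted p of 0.05. In edgeR's quasi-likelihood fit, with p adjusted over all genes tested by the Benjamini-Hochberg method, 16 genes did, 0.109% of those tested, and 0 of the 10 members were among them. At an unadjusted p under 0.05, which 10.3% of all genes met, the count was 1 member, Kdr. DESeq2 called 0 members after adjustment (1.21% of all genes it adjusted) and 2 at an unadjusted p under 0.05 (6.49% of all genes). The likelihood ratio test of edgeR called 0 (1.44%) and 2 (10.7%), and limma-voom 0 (0.178%) and 1 (11.6%). The log2 fold changes (KO minus WT) ran from -0.19 to 0.87 with 7 above and 3 below 0, and their median was 0.16 against 0.03 for all genes. In 2 of the 10 members, Kdr and Nrp1, all KO libraries lay above all WT libraries, a separation in that direction seen in 8.59% of all genes. Counted in either direction, the libraries of 17.8% of all genes did not overlap. In 0 members did all KO libraries lie below all WT libraries, which 9.2% of all genes did.

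**Figure D1:**
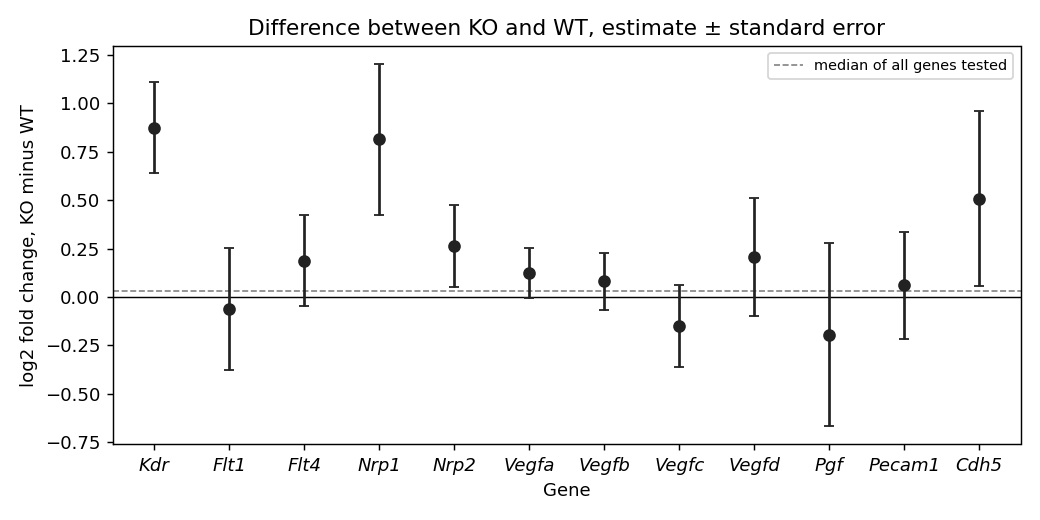
Log2 fold change (KO minus WT) of each VEGF receptor, ligand and pan-endothelial gene, with bars for the standard error of the edgeR fit; the dashed line is the median of all genes tested. Kdr (0.87) and Nrp1 (0.81) stand highest, and no member passed an adjusted p of 0.05.

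Kdr encodes VEGFR2, the main signalling receptor of the family (GRCm38 chromosome 5, 75932827 to 75978458, minus strand). Its level was 93.3, 107.8 and 137.8 CPM in WT replicates 1 to 3 and 264, 161 and 195 CPM in KO replicates 1 to 3. No WT value reached any KO value, and the closest pair was WT replicate 3 and KO replicate 2. The means were 113 ± 22.7 CPM in WT and 207 ± 52.8 CPM in KO (SD, n = 3 each). Kdr differed by 0.87 on the log2 scale (SE 0.24), a 1.83-fold difference, with an edgeR quasi-likelihood p of 0.0064 and a Benjamini-Hochberg adjusted p of 0.313. Kdr was number 298 of the 14625 genes by p. DESeq2 gave 0.84 with an adjusted p of 0.0541. Across all alternative fits and left-out libraries the log2 fold change stayed between 0.63 and 1.02 and the adjusted p between 0.0541 and 0.734. Aerocytes, the gas-exchange capillary ECs of the lung, are known for high Kdr. Of the 7 aerocyte markers, 6 had log2 fold changes above 0, with a median of 0.43 against 0.03 for all genes, and none passed an unadjusted p of 0.05 in edgeR's quasi-likelihood test or separated the groups. Their summed level was 676 to 846 CPM in WT and 573 to 932 CPM in KO. Most of that sum was Prx, at 592, 441 and 498 CPM in WT and 472, 317 and 407 CPM in KO. Prx was the 1 marker below 0 (log2 fold change -0.36), so the sum does not describe the other 6. Of the 7 general capillary markers, 5 were above 0 with a median of 0.28, and they summed to 505 to 1134 CPM and 669 to 1095 CPM. The part of EC subtypes in the Kdr difference was not tested.

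Flt1 encodes VEGFR1, whose membrane and soluble forms share exons and are summed in a count per gene (chromosome 5, 147561604 to 147726011, minus strand). Its level was 154, 157 and 293 CPM in WT and 245, 137 and 197 CPM in KO. The groups overlapped throughout, with the highest value in WT replicate 3 and the lowest in KO replicate 2. Flt1 had a log2 fold change of -0.06 (SE 0.32, adjusted p = 0.955 by edgeR's quasi-likelihood test), and it turned to 0.29 without WT replicate 3 and to 0.11 without KO replicate 2.

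Flt4 encodes VEGFR3, the receptor for VEGF-C and VEGF-D (chromosome 11, 49609263 to 49652739, plus strand). It was measured at 17.9, 20.0 and 25.2 CPM in WT and 29.0, 16.3 and 26.4 CPM in KO. The KO libraries held both the highest and the lowest of the 6 values. For Flt4 the log2 fold change was 0.19 (SE 0.24, adjusted p = 0.778 by edgeR's quasi-likelihood test), and it was 0.0022 without KO replicate 1 and 0.37 without KO replicate 2. The summed level of the 7 lymphatic EC markers was 207 to 435 CPM in WT and 201 to 261 CPM in KO, also overlapping. Most of that sum was Lyve1, at 156, 247 and 357 CPM in WT and 193, 126 and 200 CPM in KO (log2 fold change -0.55). Of the 7 markers, 4 were above 0 and 3 below, with a median of 0.42, so the sum does not describe the list as a whole. Pdpn, a further part of it, is also among the alveolar type I markers used below.

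Nrp1, the co-receptor that joins VEGF-A to VEGFR2 (chromosome 8, 128359073 to 128505462, plus strand), was the other member whose groups did not overlap. Its level was 117, 354 and 337 CPM in WT and 519, 435 and 465 CPM in KO. WT replicate 1 lay far below the other WT libraries, and the 3 KO libraries were close together. The means were 269 ± 132 CPM and 473 ± 42.2 CPM (SD, n = 3 each). The log2 fold change was 0.81 (SE 0.39, adjusted p = 0.513 by edgeR's quasi-likelihood test), and DESeq2 gave an adjusted p of 0.381. Without WT replicate 1 the log2 fold change was 0.45. That library also had the lowest alveolar type II marker sum, and the part of this in the Nrp1 difference was not tested.

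Nrp2, the neuropilin tied to VEGF-C and lymphatic vessels (chromosome 1, 62703285 to 62818695, plus strand), was measured at 10.5, 17.5 and 16.3 CPM in WT and 20.1, 17.2 and 15.9 CPM in KO. WT replicate 1 was again the lowest library, while the remaining libraries of both groups lay side by side. Nrp2 differed by 0.26 on the log2 scale (SE 0.21, adjusted p = 0.656 by edgeR's quasi-likelihood test), and by 0.060 without WT replicate 1.

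**Figure D2:**
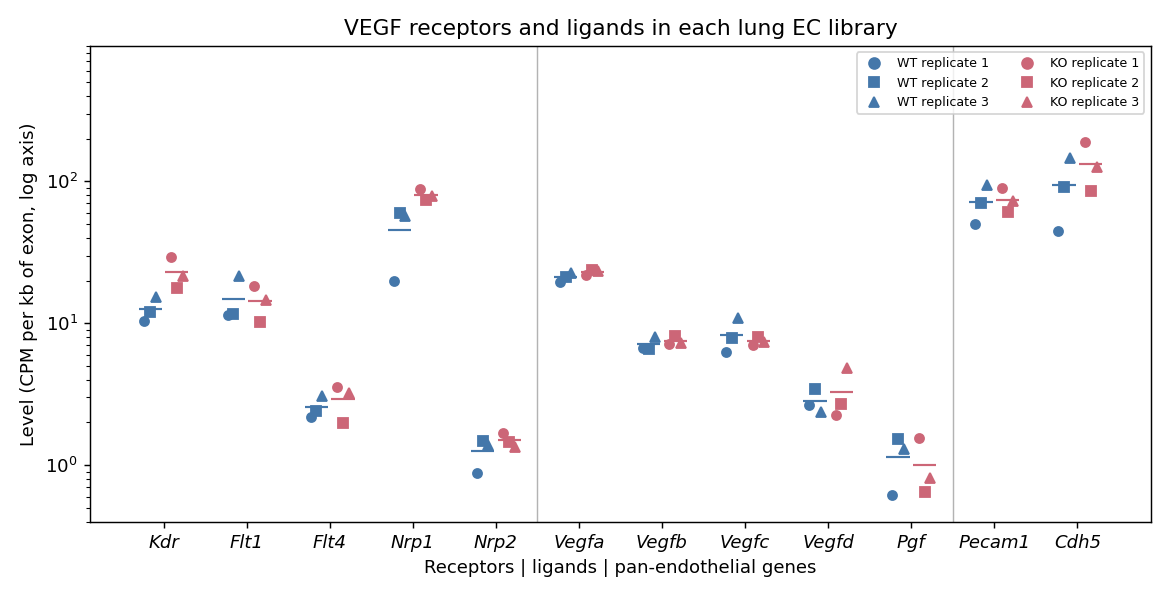
Level of each receptor, ligand and pan-endothelial gene in CPM per kb of exon (log axis) in 3 WT and 3 KO libraries; points are libraries and horizontal lines are group means. Kdr and Nrp1 are the 2 members in which all KO points lie above all WT points.

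The comparison of Kdr with the other receptors was made within each library, as the log2 ratio of their counts, which does not depend on how libraries are scaled. For each of the 5 ratios fixed for testing, an exact two-sided permutation test of 3 against 3 libraries was used, whose smallest p is 0.1, so none could pass 0.05. Relative to Flt1, Flt4, Nrp2 and Pecam1, Kdr was higher in KO with no overlap between groups, and relative to Nrp1 the groups overlapped. As a background, 54.2% of all other genes tested gave a Kdr ratio with all KO libraries above all WT libraries. When each gene was set over Pecam1, all KO libraries lay above all WT libraries in 3.58% of genes and below in 2.95%.

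Against Flt1, the log2 count ratio of Kdr was -0.73, -0.54 and -1.09 in WT and 0.11, 0.23 and -0.01 in KO. Flt1 reads outnumbered Kdr reads in all 3 WT libraries, and the counts were near parity in KO. The difference of the means was 0.90, a 1.86-fold higher ratio in KO (exact permutation p = 0.1, 0.125 after Benjamini-Hochberg adjustment over the 5 ratios). Leaving out single libraries gave 0.74 to 1.02. Per kb of exon, Kdr stood at 0.904, 1.03 and 0.705 times Flt1 in WT and at 1.61, 1.76 and 1.49 times Flt1 in KO.

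Against Flt4, the log2 count ratio was 2.38, 2.43 and 2.45 in WT, a narrow spread, and 3.19, 3.30 and 2.89 in KO. The difference was 0.70 (1.63-fold, exact permutation p = 0.1, adjusted 0.125). Against Nrp2 the ratio was 3.15, 2.62 and 3.07 in WT and 3.72, 3.22 and 3.61 in KO. Its difference was 0.57 (1.48-fold, exact permutation p = 0.1, adjusted 0.125), and WT replicate 1 and KO replicate 2 came close to each other.

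Against Nrp1, the log2 count ratio of Kdr was -0.32, -1.72 and -1.29 in WT and -0.97, -1.44 and -1.25 in KO. The highest and the lowest values were both in WT. The difference was -0.11 (exact permutation p = 0.9, adjusted 0.9), and it became 0.28 without WT replicate 1. These 2 receptors were the members with higher values in every KO library, and 3 libraries per group did not separate their ratio.

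Pecam1, the pan-endothelial adhesion molecule CD31, was measured at 313, 440 and 582 CPM in WT and 563, 379 and 449 CPM in KO. Its log2 fold change was 0.06 (SE 0.28, adjusted p = 0.950 by edgeR's quasi-likelihood test). The log2 ratio of Kdr to Pecam1 was -1.74, -2.03 and -2.08 in WT and -1.09, -1.24 and -1.20 in KO. The 3 KO values were within a narrow band above all WT values, with a difference of 0.77 (1.71-fold, exact permutation p = 0.1, adjusted 0.125). Set against the mean of the 15 endothelial markers, Kdr stood at -0.38, -0.44 and -0.77 in WT and at 0.29, 0.22 and 0.06 in KO on the log2 scale, again without overlap.

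Cdh5, which encodes the EC junction protein VE-cadherin, gave another picture. Its level was 178, 365 and 578 CPM in WT and 753, 340 and 499 CPM in KO, and the fitted difference was 0.51 on the log2 scale (SE 0.45, adjusted p = 0.690 by edgeR's quasi-likelihood test). Leaving out 1 library gave 0.15 (without KO replicate 1) to 0.96 (without WT replicate 3), and 0.17 without WT replicate 1. The log2 ratio of Kdr to Cdh5 was -0.93, -1.76 and -2.07 in WT and -1.51, -1.08 and -1.35 in KO. WT replicate 1, lowest in Cdh5, had the highest ratio of all, the groups overlapped, and the difference was 0.27. Without WT replicate 1 the difference was 0.60 and the groups no longer overlapped, whereas without any 1 of the other libraries they overlapped, with differences of 0.029 (without WT replicate 3) to 0.37. With all 6 libraries, the Kdr ratio separated the groups against Pecam1 and the marker mean, and the groups overlapped against Cdh5. The marker mean includes Pecam1 and Cdh5, so it is no separate check. Kdr also separated the groups in this direction against 54.2% of all other genes tested.

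The other receptors were also set over Pecam1, as values without a test. The KO minus WT differences of their log2 ratios were -0.12 for Flt1, 0.07 for Flt4 and 0.20 for Nrp2, each with overlapping groups. For Nrp1 over Pecam1 it was 0.88, with all KO libraries above all WT libraries.

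**Figure D3:**
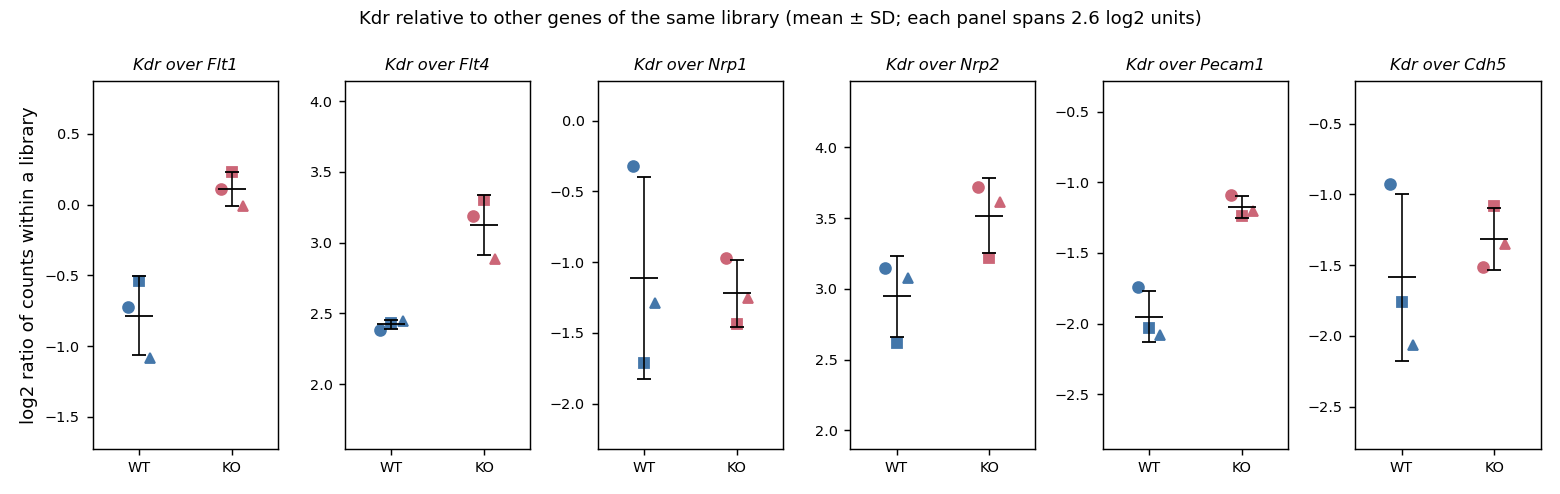
Log2 ratio of Kdr counts to those of 6 genes within each library, WT in blue and KO in red; circles, squares and triangles are replicates 1, 2 and 3, and black marks are the mean ± SD. KO lies above WT for Flt1, Flt4, Nrp2 and Pecam1, and the groups overlap for Nrp1 and Cdh5.

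The make-up of the receptor kinases was also described per kb of exon. Kdr supplied 43.2, 45.9 and 38.2% of the summed Kdr, Flt1 and Flt4 level in WT and 57.5, 59.5 and 54.9% in KO, with means of 42.4 ± 3.94% and 57.3 ± 2.30% (SD, n = 3 each). Flt1 supplied 47.8, 44.7 and 54.2% in WT and 35.6, 33.9 and 36.9% in KO. Flt4 supplied 7.67 to 9.33% in WT and 6.62 to 8.15% in KO. Flt1 held the larger share in WT replicates 1 and 3, Kdr did so in WT replicate 2 and in every KO library, and the shares of both separated the groups. These shares restate the Kdr to Flt1 ratio and are no additional evidence of it.

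**Figure D4:**
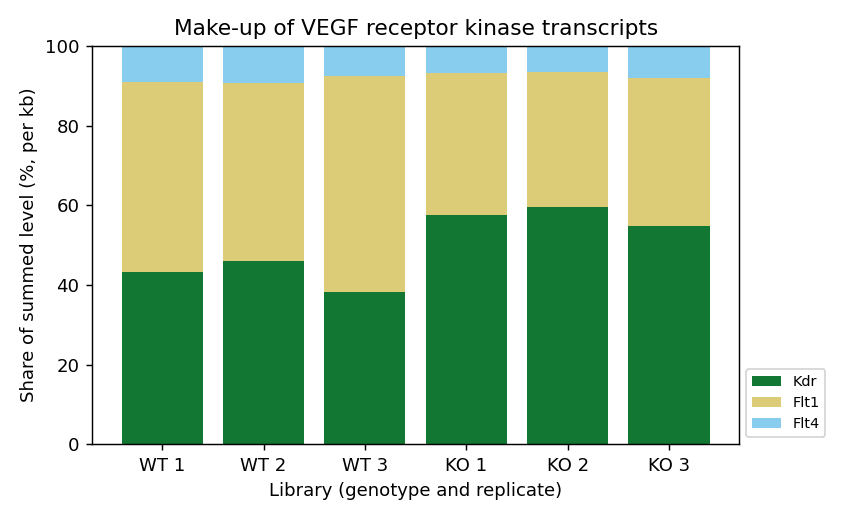
Share of the summed level per kb of exon (%) taken by Kdr, Flt1 and Flt4 in each library. Kdr takes 38.2 to 45.9% in the WT libraries and 54.9 to 59.5% in the KO libraries.

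Promoters of Kdr, Flt1 and Nrp1 are printed because Kdr and Nrp1 were the members whose libraries separated by genotype while Flt1, the receptor kinase closest to Kdr in level, did not. Sequences are from RefSeq on GRCm38.p6, 250 bases before to 50 after the annotated start, 5′ to 3′ on the gene's strand. Kdr lies at chr5:75978406-75978705 (minus), Flt1 at chr5:147725962-147726261 (minus) and Nrp1 at chr8:128358823-128359122 (plus). Capitals mark matches on either strand to any of 4 motifs. The GC box was searched as GGGCGG. The TATA box, which sets the start in some promoters, was searched as TATAAA. The cAMP response element was searched as TGACGTCA. The core read by ETS factors, which act in many EC promoters, was searched as GGAAG.
Kdr: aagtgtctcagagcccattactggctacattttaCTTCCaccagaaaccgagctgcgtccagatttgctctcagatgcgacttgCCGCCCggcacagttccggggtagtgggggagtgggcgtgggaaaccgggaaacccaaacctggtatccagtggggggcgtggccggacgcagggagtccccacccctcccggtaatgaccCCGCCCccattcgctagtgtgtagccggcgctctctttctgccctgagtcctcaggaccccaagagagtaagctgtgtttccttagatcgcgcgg
Flt1: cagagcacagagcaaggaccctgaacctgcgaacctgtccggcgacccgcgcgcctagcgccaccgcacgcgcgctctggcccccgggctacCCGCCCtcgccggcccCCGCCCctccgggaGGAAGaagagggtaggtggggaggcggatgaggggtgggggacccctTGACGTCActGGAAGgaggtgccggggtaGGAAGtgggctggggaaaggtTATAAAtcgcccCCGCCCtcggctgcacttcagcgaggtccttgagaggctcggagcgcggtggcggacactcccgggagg
Nrp1: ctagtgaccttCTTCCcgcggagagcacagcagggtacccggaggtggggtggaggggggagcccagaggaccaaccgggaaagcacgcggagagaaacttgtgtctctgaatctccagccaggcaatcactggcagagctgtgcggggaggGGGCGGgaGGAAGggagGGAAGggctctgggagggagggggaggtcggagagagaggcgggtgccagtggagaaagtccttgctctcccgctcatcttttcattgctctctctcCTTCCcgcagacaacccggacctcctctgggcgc

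The Kdr window held 2 GC boxes, 1 ETS core and no TATAAA. The Flt1 window held 3 GC boxes, 3 ETS cores, 1 TATAAA placed 31 bases before the start and 1 TGACGTCA. The Nrp1 window held 1 GC box and 4 ETS cores. Their GC contents were 60.7, 70.7 and 64.0%, above the median of 52.7% over 32851 promoters of this length, of which 35.7% held GGGCGG, 13.6% TATAAA, 1.79% TGACGTCA and 71.4% GGAAG. Among the 12 promoters of the 10 members, ACGTG, a form of the core bound by hypoxia-inducible factors, was found in 1 of the Vegfa promoters, against 19.6% of all promoters. Other forms of that core, such as GCGTG, were not searched, so the other promoters are not shown to lack it. These matches are letters in a window and no measure of binding.

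Vegfa encodes VEGF-A, the principal ligand of VEGFR1 and VEGFR2 (chromosome 17, 46016993 to 46032377, minus strand). It had the smallest standard error of the members and was measured at 83.2, 91.2 and 97.2 CPM in WT and 94.5, 101 and 100 CPM in KO. The ranges met between WT replicate 3 and KO replicate 1. Vegfa differed by 0.12 on the log2 scale (SE 0.13, adjusted p = 0.733 by edgeR's quasi-likelihood test), and it was -0.027 when libraries were scaled by total count. Alveolar type II cells also make VEGF-A, and their marker sum ran from 5285 to 49946 CPM in WT and from 38812 to 47906 CPM in KO. The 7 alveolar type I markers summed to 1862 to 2647 CPM in WT and 2484 to 2823 CPM in KO. Of these 7, 3 had log2 fold changes above 0 and 4 below, with a median of -0.16, so their sum does not describe the list as a whole. The part of epithelial cells in the Vegfa level was not tested.

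Vegfb, a ligand of VEGFR1 (chromosome 19, 6982473 to 6987651, minus strand), was measured at 10.8, 10.5 and 12.9 CPM in WT and 11.5, 13.0 and 11.6 CPM in KO. These values interleaved, with a log2 fold change of 0.08 (SE 0.15, adjusted p = 0.850 by edgeR's quasi-likelihood test). Pgf, placental growth factor and also a VEGFR1 ligand (chromosome 12, 85166639 to 85177296, minus strand), was the lowest member. It was counted 40, 82 and 44 times in WT and 57, 28 and 37 times in KO, or 0.979, 2.41 and 2.06 CPM and 2.45, 1.03 and 1.28 CPM. Its log2 fold change of -0.19 (SE 0.47, adjusted p = 0.894 by edgeR's quasi-likelihood test) rests on few reads.

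Vegfc, the ligand of VEGFR3 (chromosome 8, 54077532 to 54186454, plus strand), was measured at 11.7, 14.7 and 20.6 CPM in WT and 13.3, 15.1 and 13.8 CPM in KO. All KO libraries lay inside the WT range. Vegfc differed by -0.15 on the log2 scale (SE 0.21, adjusted p = 0.806 by edgeR's quasi-likelihood test), and it was 0.076 without WT replicate 3. Vegfd, its close relative on chromosome X (164373378 to 164402650, plus strand), was measured at 6.36, 8.34 and 5.67 CPM in WT and 5.46, 6.47 and 11.6 CPM in KO. KO replicate 3 alone held the high value. Vegfd differed by 0.21 on the log2 scale (SE 0.30, adjusted p = 0.815 by edgeR's quasi-likelihood test) and -0.19 without that library.

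Of the summed ligand level per kb, Vegfa supplied 50 to 54.4% in WT and 53.6 to 54.9% in KO. Vegfb supplied 16.1 to 18.9% and 16.6 to 18.8%, Vegfc 17.5 to 24.2% and 16.9 to 18.6%, Vegfd 5.2 to 8.53% and 5.66 to 11.0%, and Pgf 1.74 to 3.75% and 1.51 to 3.86%. Every ligand share overlapped between the groups.

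Per kb of exon, the order of mean levels in WT was Nrp1 (45.6 ± 22.4 CPM per kb), Vegfa (21.1 ± 1.63), Flt1 (14.9 ± 5.85), Kdr (12.5 ± 2.51), Vegfc (8.32 ± 2.39), Vegfb (7.10 ± 0.801), Vegfd (2.82 ± 0.576), Flt4 (2.55 ± 0.461), Nrp2 (1.25 ± 0.318) and Pgf (1.15 ± 0.471), each as mean ± SD over 3 libraries. Only Vegfb over Vegfd and Flt4 over Nrp2 were neighbours whose ranges did not overlap. In KO the order was Nrp1 (80.1 ± 7.14 CPM per kb), Vegfa (23.0 ± 0.837), Kdr (22.9 ± 5.85), Flt1 (14.3 ± 4.02), Vegfb (7.50 ± 0.528), Vegfc (7.48 ± 0.491), Vegfd (3.25 ± 1.36), Flt4 (2.9 ± 0.816), Nrp2 (1.5 ± 0.179) and Pgf (1.0 ± 0.480). Kdr and Flt1 stood in opposite order in the 2 groups, and within either group their ranges overlapped.

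The genes whose log2 CPM moved most like that of a member over the 6 libraries were taken from 8012 candidates, as a description with no test. For Kdr they were Nup210 (Pearson r of 0.989), Ccng2 (0.983), Tbcel (0.982), Casc4 (0.979) and Mapk6 (0.978). For Flt1 they were Atf1 (0.991), Gpihbp1 (0.988), Snrpe (0.977), Sema3g (0.975) and Ttyh3 (0.974), of which Gpihbp1, the capillary anchor of lipoprotein lipase, is a known EC gene. For Vegfa they included Rp9 (0.970), Bfar (0.960) and Uqcc3 (0.960), and for Vegfc they were Mrps35 (0.993), Gm2830 (0.981), Ankrd29 (0.973), 6030458C11Rik (0.963) and Asb7 (0.962). Such values come from few points that share library and depth.

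Around the members, 142 genes of 6 lists on VEGF signalling and its control were examined, of which 139 were tested. By edgeR's quasi-likelihood test 1 was called, lower in KO, and 24 had an unadjusted p under 0.05, 10 higher and 14 lower. The corresponding shares over all genes were 5.62% higher and 4.68% lower. The median log2 fold change over these lists was -0.04. In 7 list genes all KO libraries lay above all WT libraries and in 21 below, against 8.59% and 9.2% of all genes.

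Among 46 tested genes that act downstream of VEGF receptors, 12 had log2 fold changes above and 34 below 0, with a median of -0.11. Over all genes tested, 7911 were above and 6714 below 0, with a median of 0.03. At an unadjusted p under 0.05 by edgeR's quasi-likelihood test, 0 of the 46 were higher and 4 lower, against 5.62% and 4.68% of all genes. In 0 of them did all KO libraries lie above all WT libraries and in 8 below, against 8.59% and 9.2% of all genes. Hspb1, the small heat shock protein phosphorylated on the VEGFR2 to p38 route, fell. It was measured at 27.7, 27.7 and 27.3 CPM in WT and 11.4, 7.87 and 9.49 CPM in KO, a log2 difference of -1.53 (SE 0.16, adjusted p = 0.0276 by edgeR's quasi-likelihood test). The call was lost without WT replicate 3 and when any 1 of the KO libraries was left out. Nos3, the endothelial nitric oxide synthase, was at 44.3, 47.0 and 29.4 CPM in WT and 16.8, 25.2 and 21 CPM in KO (-0.94, adjusted p = 0.274), without overlap. Sphk1, a sphingosine kinase, had a log2 fold change of -0.63 (adjusted p = 0.484 by the same test).

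The 23 receptor partners, phosphatases and trafficking genes gave 0 calls with 2 higher and 1 lower at an unadjusted p under 0.05, and a median of -0.06. Over all genes, 5.62% were higher and 4.68% lower at that threshold, which holds for each list below. The EC lectin Clec14a had a log2 fold change of 0.79 (adjusted p = 0.468 by edgeR's quasi-likelihood test), the heparan sulphate proteoglycan Sdc2 0.65 (0.413) and the integrin subunit Itgav 0.58 (0.609). The 12 neuropilin ligands and plexins gave 0 calls with 3 higher and 0 lower at an unadjusted p under 0.05. In this list 11 log2 fold changes were above 0 and 1 below, with a median of 0.27, where all genes tested gave 7911 above and 6714 below. Its largest were those of the class 3 semaphorins Sema3b (0.91, adjusted p = 0.477 by edgeR's quasi-likelihood test), Sema3d (0.68, 0.460) and Sema3a (0.61, 0.482), which share the neuropilins with VEGF.

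The 12 extracellular regulators gave 0 calls, with 2 higher and 1 lower at an unadjusted p under 0.05 and a median of 0.05. Ccn2, a matricellular protein that binds VEGF-A, had a log2 fold change of -0.84 (adjusted p = 0.430 by edgeR's quasi-likelihood test), the heparanase Hpse 0.76 (0.404) and Ccbe1, which assists VEGF-C maturation, 0.69 (0.482). The 20 genes known to respond to VEGF in ECs gave 0 calls, with 2 higher and 6 lower at an unadjusted p under 0.05 and a median of 0.04. For both lists, the shares over all genes were 5.62% higher and 4.68% lower. The values of these 20 ran in both directions. In 2 of them all KO libraries lay above all WT libraries and in 6 below, against 8.59% and 9.2% of all genes. The immediate early nuclear receptors Nr4a3 (-2.78, adjusted p = 0.229 by edgeR's quasi-likelihood test) and Nr4a1 (-1.23, 0.153) were lower in every KO library, and Angpt2, the vessel-destabilising angiopoietin, was higher in every KO library (1.15, 0.383).

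The 26 tested transcription factors that act on VEGF receptor genes in ECs gave 0 calls, with 1 higher and 2 lower at an unadjusted p under 0.05 and a median of -0.03. The shares over all genes were 5.62% higher and 4.68% lower. In 2 of the 26 all KO libraries lay above all WT libraries and in 3 below, against 8.59% and 9.2% of all genes. Klf2, a flow-induced factor, was at 292, 266 and 255 CPM in WT and 121, 124 and 145 CPM in KO (-1.06, adjusted p = 0.0852 by edgeR's quasi-likelihood test), with no overlap. Lmo2, an adaptor of blood and EC transcription complexes, had a log2 fold change of 0.49 (adjusted p = 0.351 by the same test) and the lymphatic factor Prox1 0.48 (0.653). DESeq2 called 5 of the 140 list genes it adjusted, where it called 1.21% of all genes, namely Hspb1, Klf2, Nos3, Nr4a1 and Nr4a3, each lower in KO. Part of these lists had been seen in earlier results of the same libraries, so they are no independent evidence of a direction.

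**Figure D5:**
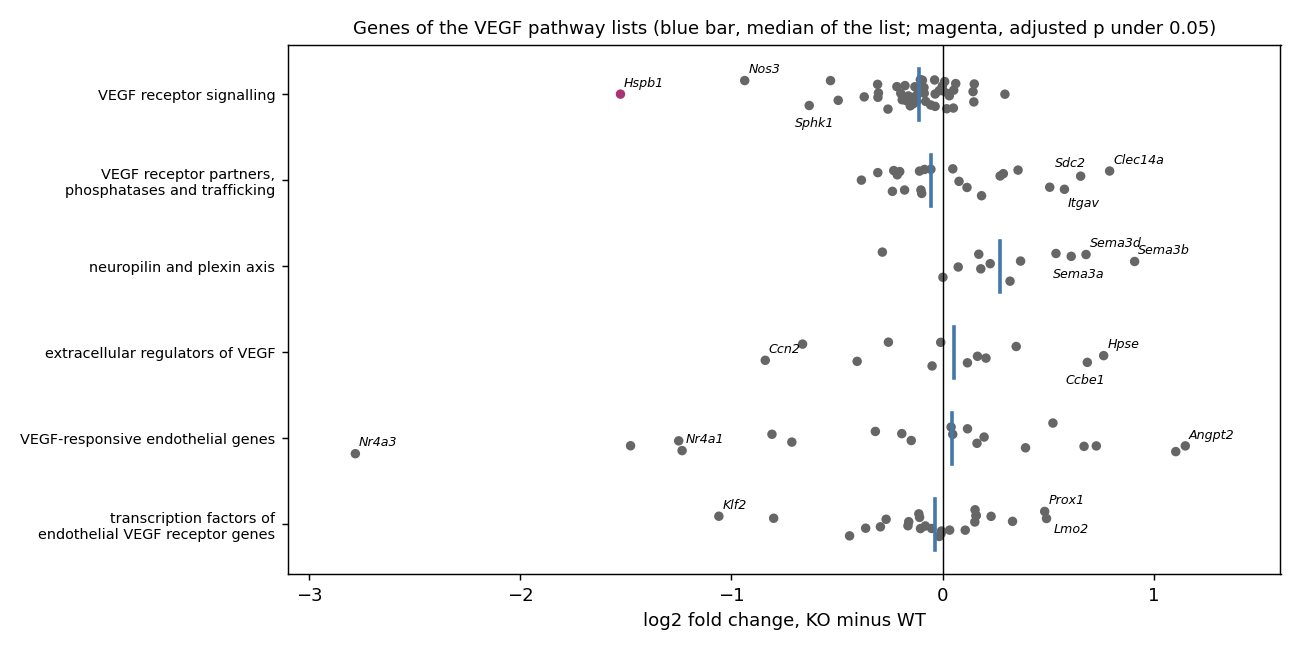
Log2 fold change (KO minus WT) of the 139 tested genes in 6 lists around VEGF signalling; points are genes, blue bars are list medians and magenta marks the gene with an adjusted p under 0.05. Hspb1 (-1.53) is the called gene, and the list medians lie between -0.11 and 0.27.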

How the data were processed

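Each library came as a table of raw counts that the authors deposited, made per the file headers with featureCounts (Subread 2.0.0) over exons of the Ensembl release 84 annotation of GRCm38. Counting used strand (reverse setting), which keeps antisense partners separate, and uniquely aligned reads. The submitters' processing notes also name STAR 2.5.4b and bcl2fastq 2.18. Reads in exons shared by isoforms are summed per gene, and reads common to overlapping genes on the same strand are not counted.

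Symbols came from GENCODE's annotation of the same build (47224 of 47729 genes). Counts were tested in R 4.3.3 with edgeR 4.0.16 (filterByExpr, TMM scaling, quasi-likelihood fit with genotype as the only term, default options), with Benjamini-Hochberg adjustment over 14625 genes and a threshold of 0.05. The test was first run on simulated counts drawn independently for each gene, with no shift in cell type make-up between libraries. Those runs are no evidence for the values given here. DESeq2 1.42.0, limma 3.58.1 (voom), the likelihood ratio test, other scalings and filters, the replicate number as a block, and each library left out in turn were alternatives. Within-library ratios used counts plus 0.5. CPM per kb divides by the merged exon length. No 2 libraries held identical counts.

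The members and the gene lists were chosen with earlier results of these data known. Named are the 10 members, Pecam1 and Cdh5, of each pathway list every gene called and the 3 with the largest absolute log2 fold change above a mean log2 CPM of 1, and the 5 genes most correlated with Kdr, Flt1, Vegfa and Vegfc above a mean log2 CPM of 3, except that some genes correlated with Vegfa are not reported here. Markers of 15 cell classes were summed. Pgf rests on 28 to 82 counts per library.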

Additional observations from a re-analysis of the deposited data

How the results depend on the processing

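The family had 0 called members under all 18 alternatives, and Kdr and Nrp1 were above 0 in each. Flt4 and Nrp2 were too, but came down to 0.0022 (without KO replicate 1) and 0.060 (without WT replicate 1). Over all genes, 16 calls became 187 with DESeq2, 211 with the likelihood ratio test, 26 with limma-voom, 26 with RLE scaling, 31 with upper quartile scaling, 123 with total-count scaling and 152 without a filter. Of the pathway genes, 1 call became 5 with DESeq2, 5 with the likelihood ratio test, 4 with total-count scaling and 6 without a filter. Leaving out 1 library gave 0 to 791 calls over all genes and 0 to 10 among the pathway genes. The highest counts came without WT replicate 2, and all genes gave 0 calls without each KO library. Hspb1 lost its call without WT replicate 3 and without each KO library. The cause was not tested.

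With the replicate number as a replicate block, 0 genes in all and 0 pathway genes were called. The numbers did not pair the libraries, with correlations of same-numbered deviations of -0.08, 0.22 and 0.01, and the 5 Kdr ratios are the same differences when paired.

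Signs turned for members close to 0. Total-count scaling, which moved the median of all genes from 0.03 to -0.13, gave -0.027 for Vegfa, -0.077 for Vegfb and -0.048 for Pecam1. Leaving out 1 library gave -0.30 to 0.29 for Flt1, -0.0090 to 0.16 for Vegfb, -0.32 to 0.076 for Vegfc, -0.19 to 0.39 for Vegfd, -0.66 to 0.047 for Pgf and -0.15 to 0.29 for Pecam1. Kdr over Pecam1 was 0.77, and 0.27 with Cdh5 in its place. Kdr over Cdh5 with 1 library left out, also chosen after seeing the data, gave 0.029 to 0.60. An alternative chosen after seeing the data, without both first libraries, gave 0.93 for Kdr over Flt1 and 0.83 for Kdr over Pecam1. With 3 libraries per group no exact test of a ratio can pass 0.05.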
